A study of Rattus norvegicus with 108 samples.

Results

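The 8 genes followed here, of 19127 counted in cells of the rat dentate gyrus, were the CXC chemokines Cxcl1 and Cxcl10, the CC chemokines Ccl2, Ccl3 and Ccl4, the cytokines Il1b and Tnf, and the alarmin subunit S100a9. They were taken by symbol from the count tables of the dorsal (dorDG) and ventral (venDG) dentate gyrus, and all 8 were present in both. Male Long-Evans rats (Charles River in the labels), 2 months old, received 18 mg per kg fluoxetine (FT) or water (Sham) for 6 weeks, and the labels give no other treatment. Punched tissue of each region was run on droplet-based 3′ single-cell RNA-seq in 4 dorDG FT replicates (numbered 1, 2, 4 and 5) and in 5 replicates of dorDG Sham, venDG FT and venDG Sham, 19 replicates in all. The labels speak of nuclei, whereas the methods name both papain-dissociated cells and isolated nuclei, and which reaction held which was not stated. The labels do not tie a replicate to single animals, so that the p-values measure only the spread between these tissue pools.

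Chemokines are small secreted proteins that attract leukocytes. Cxcl1 acts on neutrophils through Cxcr2, Cxcl10 on activated T cells through Cxcr3, Ccl2 on monocytes through Ccr2, and Ccl3 and Ccl4 on monocytes and T cells. Il1b and Tnf are the early inflammatory cytokines of macrophages and microglia, the resident macrophages of the brain, and their genes, like several chemokine genes, are classical targets of NF-kB. S100a9 is carried mainly by neutrophils and monocytes.

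The upstream sequences of Cxcl1 and Cxcl10 are shown because, of the members with an entry, these were the ones whose window held the kB motif searched, which NF-kB dimers recognise. All 7 tested members fell between reactions, with Il1b and Tnf, which lacked the motif, among them. Any part of the motif in that fall was not tested. Sequences came from RefSeq (GRCr8), where 5 of the 8 members had an entry, and the search covered 250 bases before to 50 bases after the start. The 250 bases before the start are printed 5′ to 3′ on the gene's own strand, at chr14:17479322-17479571 on the minus strand for Cxcl1 and at chr14:15988816-15989065 on the plus strand for Cxcl10, with every match to the kB motif (GGGA, any 2 bases, then TTCC, on either strand, overlapping matches joined) in capitals.
Cxcl1: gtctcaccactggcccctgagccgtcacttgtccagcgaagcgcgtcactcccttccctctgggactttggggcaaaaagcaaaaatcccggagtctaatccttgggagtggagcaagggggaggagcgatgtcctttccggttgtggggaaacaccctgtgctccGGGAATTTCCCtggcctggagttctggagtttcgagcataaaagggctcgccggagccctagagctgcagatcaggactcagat
Cxcl10: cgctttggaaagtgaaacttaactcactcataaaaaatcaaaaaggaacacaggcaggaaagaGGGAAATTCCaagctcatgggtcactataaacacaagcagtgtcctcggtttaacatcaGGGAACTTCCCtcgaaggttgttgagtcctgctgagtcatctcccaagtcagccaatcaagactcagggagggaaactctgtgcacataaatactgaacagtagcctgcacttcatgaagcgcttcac
Cxcl1 had 1 such run, which began 84 bases before the start. Cxcl10 had 2 runs, 187 and 128 bases before the start, and also 1 match to the AP-1 motif TGANTCA (96 bases before) and 1 to the interferon-response motif (GAAA, any 2 bases, then GAAA, 243 bases before). The kB letters were absent from the same window of Il1b, Tnf and S100a9, each of which held TATAAA, at 60, 46 and 42 bases before the start. TATAAA also stood 162 bases before the start of Cxcl10 and was absent from the Cxcl1 window. Among 33469 promoter windows of the same length, 1.3% held the kB motif, 7.33% TGANTCA, 3.92% the interferon-response motif and 14.2% TATAAA.

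The tables, filtered by the authors, gave 1289 dorDG cells and, with 170 venDG columns left out here for a second suffix on the reaction name, 2058 venDG cells. Replicates held 42 to 384 cells and 220162 to 1523537 UMIs (unique molecular identifiers, counted molecules), with 9 to 59 microglia each. Each of 8 replicates had been loaded as 2 droplet reactions and 11 as 1 reaction, and 9 cell barcodes occurred in more than 1 reaction. Replicate 3 of Sham had the largest share of cells with under 2% of UMIs from ribosomal protein genes in either region (72.0% of dorDG and 61.9% of venDG cells), and comparisons that rest on it are given without it where this changed a call. The names of the 12 dorDG cell types were the authors'. In venDG, where cells were clustered anew without the 8 genes, the Microglia-like, Endothelial-like and Mural-like clusters were named by markers, and 354 cells remained unnamed.

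Ccl3 had the most UMIs of the 8 genes, 16001 in dorDG and 21120 in venDG, followed by Ccl4 (11606 and 17579), Il1b (4411 and 6324), Ccl2 (2134 and 2711), Cxcl1 (1025 and 1552), Tnf (686 and 1253) and Cxcl10 (420 and 994). S100a9 had 5 and 14 UMIs, in 5 and 8 cells. Microglia carried most UMIs of the first 7. The types Microglia1 and Microglia2, together 16.3% of dorDG cells, held 94.1% of Ccl3, 92.8% of Ccl4, 90.6% of Il1b, 87.5% of Tnf, 85.2% of Cxcl10, 82.9% of Cxcl1 and 82.7% of Ccl2 UMIs. In venDG the Microglia-like cells, 17.0% of cells, held between 69.7% (Cxcl10) and 92.7% (Ccl3). Cxcl10 differed from the others there in that 15.2% of its UMIs (151 of 994) lay in Endothelial-like cells, which were 13.8% of cells. In 233 of these cells, 3 held 44.7% of 150 Cxcl10 UMIs.

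Since the types were made from expression that included these genes, levels across types are a description with no test. Levels are UMIs per 10000 UMIs of the cells in question, and compare types within a gene. Microglia1 (107 cells) stood highest for all 7 genes and Microglia2 (103 cells) came next for all but Ccl2. For the CXC chemokines, Cxcl1 was at 10.9 in Microglia1, with a mean over replicates of 12.6 ± 10.7 (SD, n = 9), at 4.01 in Microglia2 and at 2.1 in the type named Mossy. Cxcl10 was at 5.02 in Microglia1 (4.98 ± 3.33) and at 0.840 in Microglia2 (0.553 ± 0.737). The step from Microglia1 to Microglia2 exceeded the combined SD for Cxcl10 but not for Cxcl1.

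Among the CC chemokines, Ccl3 was at 201 in Microglia1 (191 ± 112) and at 55.9 in Microglia2 (57.4 ± 44.9), and the next type, Oligodend2, was at 4.16. Ccl4 followed the same order, with 137 in Microglia1 (127 ± 60.3), 54.5 in Microglia2 (56.2 ± 41.5) and 3.81 in Oligodend2. Ccl2 did not: it was at 26.1 in Microglia1 (28.1 ± 18.0), 4.60 in Mossy (3.63 ± 4.02) and 1.34 in Microglia2 (1.16 ± 1.33). Of the cytokines, Il1b was at 56.4 in Microglia1 (51.8 ± 17.0) against 8.50 in Microglia2 (9.01 ± 5.21), whereas Tnf was nearly even, at 6.78 (6.50 ± 2.55) against 4.76 (4.40 ± 2.1). Microglia1 thus exceeded the next type by more than the combined SD for Cxcl10, Ccl2, Ccl3 and Il1b but not for Cxcl1, Ccl4 and Tnf. Microglia2 exceeded the type below it by more than the combined SD for Ccl3, Ccl4, Il1b and Tnf. Further down, neighbours in the order did not differ beyond their spread for 6 of the genes, and for Ccl4 did so at 1 step, below AstroSub1 (1.19).

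**Figure D1:**
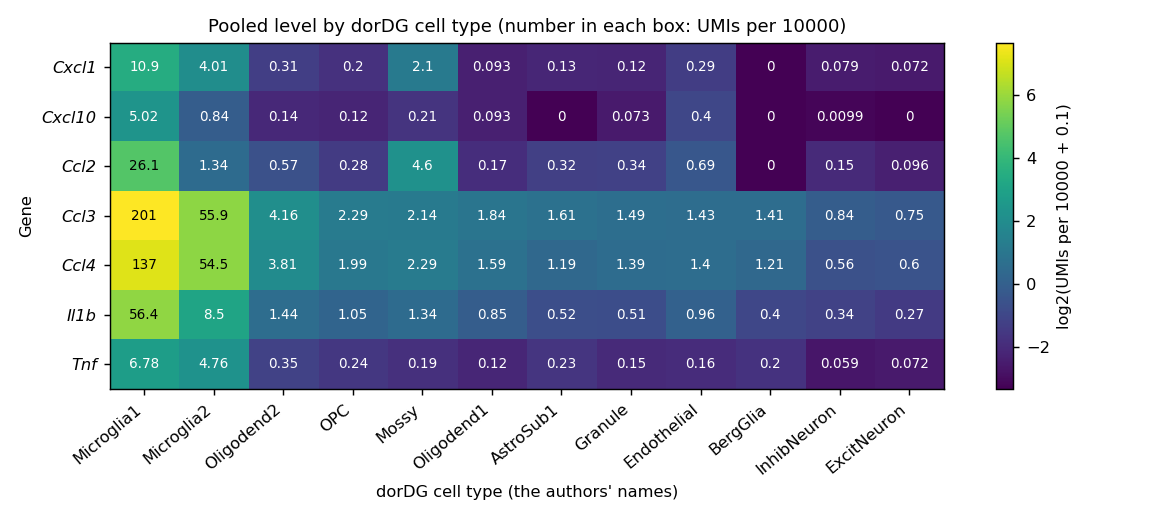
Pooled level of 7 members (rows) in the 12 dorDG cell types (columns), printed as UMIs per 10000 UMIs and coloured on the scale log2(level + 0.1). Both microglial columns stand out, with Ccl3 at 201 and 55.9, and Ccl2 shows a further high value of 4.60 in the type named Mossy.

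The microglial names fitted their markers: the 10 microglial markers summed to 207 UMIs per 10000 in Microglia1 and 220 in Microglia2, and 7 perivascular macrophage markers to 18.7 and 10.2. Median depth differed, at 6669 UMIs per cell in Microglia1 and 1925 in Microglia2. With each cell thinned to 1000 UMIs (329 shallower cells left out), 88.5% of Microglia1 and 58.6% of Microglia2 cells had a Ccl3 UMI, against 3.40% of the type named InhibNeuron, which should lack the gene as a neuron. Its markers were neuronal but not inhibitory, summing to 12.8 UMIs per 10000 for granule, 9.88 for excitatory and 0.621 for inhibitory neurons, with Slc32a1, Lhx6 and Dlx1 at 0. Before thinning these shares were 93.5%, 62.1% and 27.2%. Thinned Ccl2 shares were 39.4% and 11.5% and thinned Cxcl1 shares 19.2% and 6.90%.

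Cells of one type differed widely. In 102 Microglia1 cells of at least 1000 UMIs outside the second reactions, Ccl3 had a median of 165 UMIs per 10000 (10th percentile 11.1, 90th percentile 418, highest 863) and Il1b of 51.3. Ccl2 had a median of 2.76, with 37.3% of the cells at 0, a 90th percentile of 85.6 and a highest value of 276. The CXC chemokines were the most uneven. Cxcl1 was at 0 in 62.7% and Cxcl10 in 58.8% of the cells, and 3 cells held 41.2% and 52.6% of their UMIs. In the same cells thinned to 1000 UMIs, 4 held all 7 genes, 22 held 5, 33 held 4 and 2 held none. Ccl3 and Ccl4 occurred together in 88.2% of cells (83.1% from the product of their shares), and Cxcl1 and Cxcl10 in 9.80% (3.84% from the product). In Microglia2, 24 of 80 such cells held none of the 7.

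The balance of Ccl2 to Ccl3 differed between types. Ccl2 made up 11.5% of the Ccl2 and Ccl3 UMIs in Microglia1 (95% exact binomial interval 11 to 12) and 2.34% in Microglia2, but 68.2% in Mossy (62.8 to 73.3, 217 against 101 UMIs) and 32.6% in Endothelial (25.1 to 40.9). The other types with UMIs lay between 8.46% and 18.7%, apart from BergGlia with 0 of 7 UMIs. Such intervals cover counting error only. In Mossy the share ran from 0 to 87.8% over 7 replicates (median 58.1%) and exceeded that of the same replicate's microglia (1.09 to 19.7%) in 6 of 7. Endothelial cells did so in 4 of 7, with a median share of 17.1%, and 1 cell held 31 of their 47 Ccl2 UMIs. The 8 other types pooled did so in 8 of 9, at 2.55 to 36.8% (median 16.7%).

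Few cells set the Mossy value: 3 cells held 69.1% of its Ccl2 UMIs and the highest cell 94. The name also went against the markers, because the cells summed to 28.7 UMIs per 10000 of mural and 39.8 of endothelial markers and to 1.65 of excitatory neuron markers, and they are called here by the authors' label only. Mural-like cells of venDG had a like balance, with a Ccl2 share of 70.9% of 110 UMIs, of which 3 cells held 79.5% of Ccl2. By contrast, the share of Ccl4 in Ccl4 and Ccl3 UMIs was 40.5% in Microglia1, 49.4% in Microglia2 and 40.1 to 51.7% in the other dorDG types. Ccl3 and Ccl4 are both CC chemokine genes, and whether any reads were split between similar genes was not tested.

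**Figure D2:**
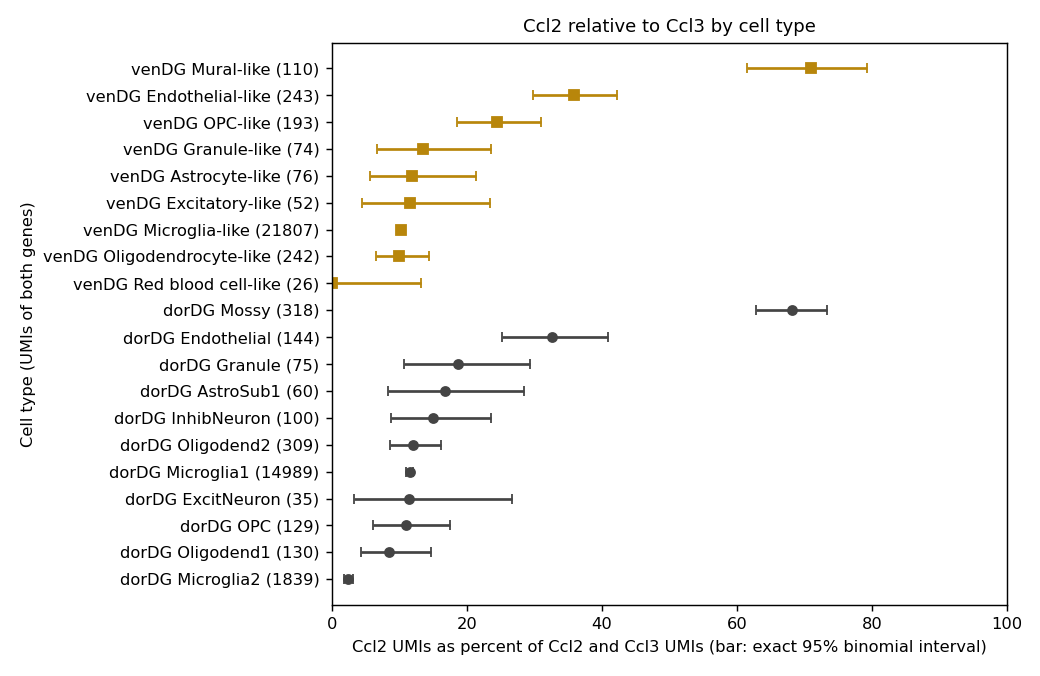
Share of Ccl2 among Ccl2 and Ccl3 UMIs in each cell type of dorDG and venDG (percent, points), with exact 95% binomial intervals (bars) and the number of UMIs in brackets. Mossy (68.2%) and Mural-like (70.9%) lie far to the right of Microglia1 (11.5%) and Microglia-like cells (10.2%).

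Over the 12 types, the genes most like each member by Pearson correlation of log2(UMIs per 10000 + 0.1), among 9335 genes, were Snx18 (0.981), Rnf19b (0.965) and Cd40 (0.958) for Cxcl1. Cxcl10 was closest to Ch25h (0.958), Gbp2 (0.956) and Slc7a6os (0.949), and Ccl2 to Gbp2 (0.95), Ch25h (0.937) and Sod2 (0.936). Cxcl2 and Cd74 led for Ccl3 (both 0.989) and for Ccl4 (0.990 and 0.984), followed by Bcl2a1 (0.980 and 0.975). Il1b was closest to Bcl2a1 and Cxcl2 (both 0.983) and Rel (0.967), and Tnf to Cd74 (0.987), Aif1 (0.985) and Ctss (0.983). The members were most alike for Ccl3 and Ccl4 (0.997) and least for Ccl2 and Tnf (0.727). These values share the same 12 types and depths and carry no test.

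S100a9, a neutrophil protein, was at 0 in all microglia of both regions. Of its 14 UMIs in venDG, 12 lay in Mural-like cells (7.59% of them, 0.595 UMIs per 10000) and 2 in Endothelial-like cells, and 2 of the 5 in dorDG lay in Mossy. Of 6 neutrophil markers, Ngp, Camp, Mmp9 and Csf3r were at 0 in the Mural-like cells, and S100a8 and Lcn2 were not, the 6 summing to 0.149 UMIs per 10000. Its level passed the low-count filter in no comparison, so that 7 of the 8 members were tested.

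Of the comparisons made here, the largest difference for these 7 genes lay between the reactions of a replicate. 8 replicates, 2 of each group, had a first and a second reaction, in the order of the reaction's number: 1042 cells with 5258213 UMIs in the first and 784 cells with 2265324 UMIs in the second. Ccl3 had 22574 UMIs in the first reactions and 3 in the second, and Ccl4 17889 and 0. Il1b had 5171 and 2, Ccl2 1717 and 8, Cxcl1 1572 and 9, Tnf 1105 and 2, and Cxcl10 897 and 1. All 7 were lower in the second reaction in each of the 8 replicates, which 25.3% of the 4378 genes tested also were. S100a9, with 10 and 3 UMIs, was lower in 4 of 8.

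Ccl3 ranged in the first reactions from 27.0 (replicate 1) and 25.4 (replicate 2) UMIs per 10000 in dorDG FT, 41.8 and 115 in dorDG Sham, 30.4 and 51.5 in venDG FT, to 40.9 and 34.4 in venDG Sham, and was at most 0.0549 in any second reaction. The highest second reaction lay far below the lowest first one for each of the 7 genes. For Cxcl1 these were 0.155 against 1.29, for Ccl2 0.177 against 1.81, and for Cxcl10 0.0222 against 0.233. Of the second-reaction UMIs of Cxcl1 and Ccl2, 7 of 9 and 8 of 8 lay in a pair of Endothelial-like cells of venDG Sham replicate 1.

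Pooled over replicates, first exceeded second reactions 75.2-fold for Cxcl1 (95% counting interval 39.5 to 165), 92.5-fold for Ccl2 (46.8 to 214) and 3242-fold for Ccl3 (1109 to 15721). The ratio was 1114 for Il1b (308 to 9200), 386 for Cxcl10 (69.2 to 15280) and 238 for Tnf (65.7 to 1968), and Ccl4 was at least 2569-fold higher against a floor of 3 UMIs over the second reactions. In edgeR's quasi-likelihood test with replicate as a block and Benjamini-Hochberg adjustment, 7 of 7 members fell at an adjusted p of at most 0.2 and a log2 change of at least 0.32, where 39.9% of the 4378 genes tested fell. All 7 passed the low-count filter, a mean over both reactions, through their first reactions, the second reactions being at most at 0.177. Members were also chosen with earlier results of these data known, so that the count of 7 is a description and no added support. Log2 changes were -6.91 ± 0.39 (SE) for Cxcl1 (adjusted p = 3.305e-09), -8.22 ± 0.38 for Cxcl10 (9.273e-10), -7.07 ± 0.52 for Ccl2 (2.362e-08) and -11.92 ± 0.49 for Ccl3 (3.469e-10). Those of Ccl4, Il1b and Tnf were -13.84 ± 0.58, -10.27 ± 0.43 and -8.13 ± 0.38. Fitted changes of genes with 0 to 3 UMIs in a group depend on edgeR's prior count, and the ratios above are the measured sizes. The median change of the members was -8.22 and that of all genes tested 0.13.

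**Figure D3:**
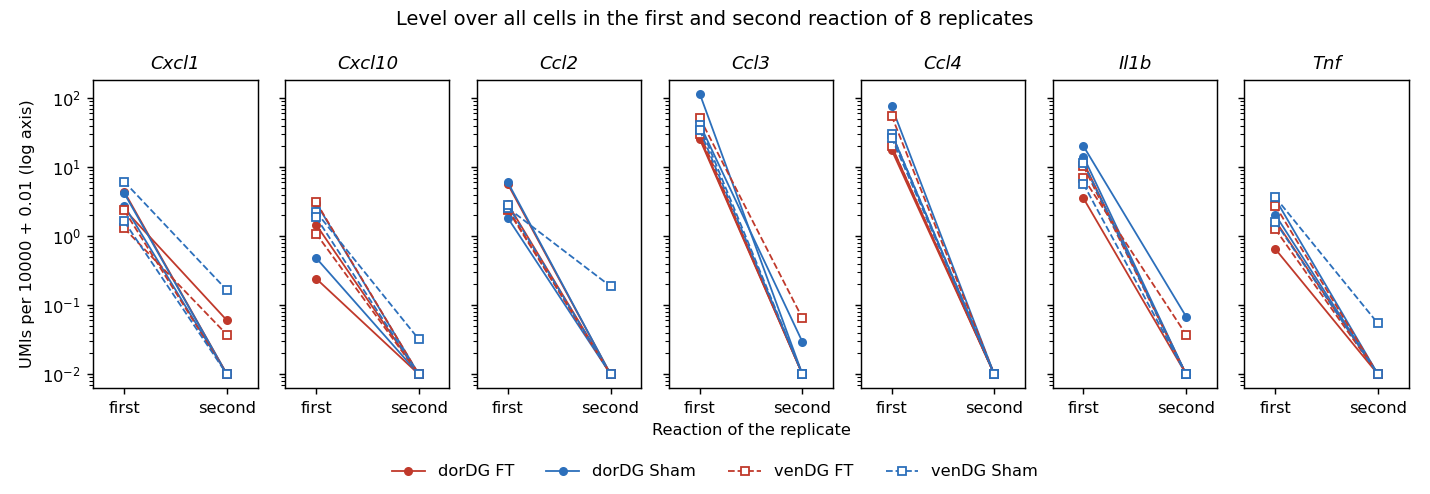
Level of the 7 tested members in the first and second reaction of the 8 replicates with both, as UMIs per 10000 UMIs plus 0.01 on a log axis, with a line per replicate (red FT, blue Sham, filled dorDG, open and dashed venDG). Every line falls, for Ccl3 from 25.4 to 115 down to at most 0.0549.

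Second reactions held few microglia, 41 (84750 UMIs) against 239 (1225390 UMIs), so that the genes were also compared within microglia. Among the 41, Ccl3 had 1 UMI and Il1b 1, and Cxcl1, Cxcl10, Ccl2, Ccl4 and Tnf had 0. Ccl3 stood at 170 UMIs per 10000 in first-reaction microglia, 1444-fold higher (259 to 57022), and Il1b was 314-fold higher (56.4 to 12413). The other first-reaction levels were at least 369-fold higher for Ccl4, 30.6-fold for Cxcl1, 26.3-fold for Ccl2, 22.3-fold for Tnf and 15.9-fold for Cxcl10, against 3 UMIs over the second-reaction microglia. Thinned to 1000 UMIs, 202 of 231 first-reaction microglia (87.4%) and 0 of 34 second-reaction microglia had a Ccl3 UMI, and 0 of 34 allows a share of up to 8.82%. In edgeR's test over the 4 replicates with at least 5 microglia in both reactions (1 dorDG, 3 venDG), 7 of 7 members fell, where 32.6% of 3625 genes did. The members passed the filter through the first reactions here too, so that this count is likewise a description. Log2 changes ranged from -8.56 ± 1.21 for Ccl2 (adjusted p = 7.504e-11) to -13.49 ± 1.21 for Ccl4 (1.836e-25). Cells not named microglia showed the same direction, with Ccl3 at 1701 against 2 UMIs (460-fold), Ccl2 at 576 against 8 (38.9-fold) and Cxcl1 at 243 against 9 (14.6-fold). They include the unnamed venDG cells, whose microglial markers summed to 56.5 UMIs per 10000 and which held 771 Ccl3 UMIs over all reactions. Among these was a cluster of 37 cells that passed 10 microglial markers, so that this set is not free of microglia or macrophages.

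Microglial markers were detected in the second-reaction microglia, at changed levels. Per 10000 UMIs, C1qa was at 46.4 in second and 32.3 in first reactions, Csf1r at 17.5 and 9.79, Cx3cr1 at 3.19 and 0.563, and Tmem119 at 3.66 and 1.75, whereas Aif1 was at 2.71 and 13.8. The sign for C1qa and Csf1r turned with scaling, since edgeR with TMM gave log2 changes of -1.09 and -0.19, those for Cx3cr1 and Aif1 being 1.35 and -3.54. Of 9 microglial markers tested by edgeR, 5 fell (Aif1, Ctss, C1qa, C1qb and C1qc), with Ctss at -1.22, and 1 rose (Cx3cr1). The median change over all genes tested was -0.18. All 41 second-reaction microglia had under 2% of UMIs from ribosomal protein genes, against 4 of 239 in first reactions. Reaction order, ribosomal share and the preparation of the suspension cannot be told apart here.

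Other genes of the pathway fell with the members. Of 5 further ligands tested over all cells, 5 fell, among them Cxcl2, a neutrophil chemokine (7223 against 0 UMIs, log2 change -12.64 ± 0.53, adjusted p = 1.203e-07 by edgeR with Benjamini-Hochberg adjustment), Il1a (-6.79 ± 0.36), Ccl9 (-7.01 ± 0.56) and the neuronal chemokine Cx3cl1 (-1.28 ± 0.25). All 5 tested genes of the NF-kB, interferon and inflammasome list fell, led by the inhibitor Nfkbia (5277 against 128 UMIs, -4.57 ± 0.26) and by Nfkbiz (-4.32 ± 0.37), and so did the adhesion molecule Icam1 (-4.001 ± 0.29), the 1 gene tested of its list. Receptors did not move as a group: of 3 tested, Il6r rose (0.52 ± 0.22) and Csf1r fell (-1.87 ± 0.50). Csf1r is also a microglial marker. All 7 microglial markers tested over all cells fell, second reactions held few microglia, and within microglia Csf1r was at -0.19. The part of cell numbers in these all-cell falls was not tested. The immediate early and stress list, which includes Fos, Jun and Egr1, fell in 12 of 12 tested. Beside these counts, 1749 of all 4378 genes tested fell and 1936 rose.

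In microglia alone, 8 of 9 further ligands fell, with Cxcl2 at 6698 against 0 UMIs (-11.99 ± 1.15), Ccl9 at -8.75 ± 1.29, Il1a at -6.47 ± 0.82 and Il6 at -4.25 ± 0.91. NF-kB list genes fell in 6 of 8, among them Nfkbia (3155 against 5 UMIs, -6.68 ± 0.76), the NF-kB subunits Rel (-6.22 ± 1.47) and Nfkb1 (-2.21 ± 0.61), and Nfkbiz (-5.93 ± 0.91). Icam1 fell by 4.22 on the log2 scale. Of 8 receptors, Cx3cr1 rose (1.35 ± 0.59) and Tlr2 (-2.89 ± 0.68) and Tnfrsf1b (-1.50 ± 0.70) fell, and immediate early genes fell in 12 of 12. These log2 changes met the same threshold of adjusted p in edgeR with Benjamini-Hochberg adjustment. Among all 3625 genes tested in microglia, 1182 fell and 502 rose.

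The design then compared FT with Sham. Over all dorDG cells, Ccl2 stood at 4.70, 2.25, 4.2 and 6.87 UMIs per 10000 in FT replicates 1, 2, 4 and 5, and at 3.19, 1.28, 3.44, 2.14 and 3.85 in Sham replicates 1 to 5. FT replicates 1, 4 and 5 lay above every Sham replicate and FT replicate 2 within their range. Ccl2 rose by 0.81 ± 0.34 (SE) on the log2 scale, from 2.78 ± 1.05 (SD, n = 5) to 4.50 ± 1.90 (n = 4), with an adjusted p = 0.181 (edgeR, Benjamini-Hochberg). It was the 1 of 7 members called, where 28.6% of 4274 genes were called, 1 of 7 lying below that background. The 1221 genes behind the background themselves became 0 under the block and without FT replicate 4 or 5 or Sham replicate 3 or 5. The call did not survive an adjusted p of 0.05 and turned to -0.03 ± 0.42 (adjusted p = 0.9997) in cells with at least 2% ribosomal UMIs. It was lost without FT replicate 1, 4 or 5 or Sham replicate 1, 3 or 5 (0.55 to 0.93), and blocking on replicate number gave 0.86 ± 0.18 and an adjusted p = 0.216.

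Other measures moved with that difference, and their part in it was not tested. Summed mural markers ran from 2.36 to 6.15 UMIs per 10000 in FT and from 0.571 to 3.62 in Sham replicates, and microglial markers from 24.2 to 58.6 and from 19.0 to 41.5. Cells with under 2% ribosomal UMIs made up 14.5 to 42.1% in FT and 31.9 to 72.0% in Sham. In sums over all cells, more cells of a type and more RNA per cell cannot be told apart. Within replicates of 2 reactions the log2 ratio of FT to Sham means for Ccl2 was 0.64 (2 against 2 replicates), and within those of 1 reaction 0.82 (2 against 3).

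The other 6 tested members lay between -0.35 ± 0.68 (Ccl3) and 0.66 ± 0.66 (Cxcl1) in dorDG, and none was called. Ccl3 was at 22.6, 19.7, 17.0 and 33.8 in FT and at 22.3, 81.2, 2.53, 13.3 and 27.5 in Sham. Sham held both the highest value, in replicate 2, and the lowest, in replicate 3, and the FT values lay between them. Cxcl1 was at 3.68, 1.91, 0.639 and 1.83 in FT and at 1.47, 2.94, 1.63, 0.164 and 0.259 in Sham, with overlap. Without Sham replicate 2, 3 members were called, Ccl2 (0.63), Cxcl1 (1.28, adjusted p = 0.142) and Tnf (0.72, adjusted p = 0.167, edgeR with Benjamini-Hochberg adjustment), and 1969 genes. The median change of the members was 0.05, beside -0.04 over all genes. Of the lists, 7 of 13 immediate early genes rose, and 0 of 6 further ligands, 0 of 2 receptors, 0 of 5 NF-kB list genes and 0 of 7 microglial markers were called by edgeR, beside the 28.6% of all genes.

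In venDG, Ccl2 was at 1.80, 1.82, 5.96, 5.11 and 4.43 in FT replicates 1 to 5 and at 1.57, 1.99, 0.863, 3.92 and 0.717 in Sham. 3 FT replicates lay above all Sham values and the groups overlapped. The log2 change was 1.02 ± 0.43 (unadjusted p = 0.0318, adjusted p = 0.763, edgeR with Benjamini-Hochberg adjustment), from 1.81 ± 1.29 to 3.82 ± 1.91 (SD, n = 5 each). No member was called by edgeR or DESeq2, 1 of 7 had an unadjusted p under 0.05, and the percentage of the 4079 genes called was 0, with 237 at an unadjusted p under 0.05 and 22 called by DESeq2. Within replicates of 2 reactions the log2 ratio of Ccl2 means was 0.03, and within those of 1 reaction 1.49. The replicates of 2 reactions of either treatment, 1 and 2, lay close together at 1.57 to 1.99.

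The same comparison was made within microglia. Microglial Ccl2 in dorDG was at 17.9, 1.99, 20.2 and 33.4 in FT and at 17.9, 4.50, 41.3, 19.6 and 20.1 in Sham. Both groups spanned almost the same range, and the log2 change was -0.07 ± 0.56. In venDG Microglia-like cells, Ccl2 was at 7.60, 5.73, 37.9, 19.96 and 23.2 in FT and at 5.78, 4.31, 6.45, 13.7 and 1.56 in Sham. FT replicates 3, 4 and 5 lay above every Sham replicate and replicates 1 and 2 within their range. That change was 1.59 ± 0.50 (unadjusted p = 0.00504, adjusted p = 0.869, edgeR with Benjamini-Hochberg adjustment), from 6.35 ± 4.49 to 18.9 ± 13.1. The region by treatment term for microglial Ccl2 was -1.70 ± 0.84 (unadjusted p = 0.0532, adjusted p = 0.9999, edgeR), so that a difference between regions in the response was not shown.

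Microglial Ccl3 showed no such split. It was at 92.7, 180, 82.5 and 174 in dorDG FT and at 134, 352, 28.6, 125 and 146 in dorDG Sham. In venDG it was at 106, 184, 103, 85.4 and 159 in FT and at 126, 162, 24.4, 109 and 93.9 in Sham. Sham replicate 3 was the lowest in both regions. By the ratio of the highest to the lowest of the 19 replicates, microglial Cxcl1 varied 56.4 times, against 26.5 for Ccl2, 14.4 for Ccl3, 8.65 for Cxcl10, 8.52 for Ccl4, 7.16 for Tnf and 5.02 for Il1b. The lowest Cxcl1 value, 0.340 in venDG Sham replicate 3, rested on 1 UMI. As a percentage of the mean, the SD over the 19 replicates was 73% for Cxcl1 and 75.3% for Ccl2, so that Cxcl1 did not lead by that measure. No member was called in microglia of either region by edgeR or DESeq2 (0 of 7 in dorDG and 1 of 7, Ccl2, in venDG at an unadjusted p under 0.05), and the percentage called was 0 of 2976 and of 2880 genes (113 and 144 at an unadjusted p under 0.05, 0 by DESeq2).

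The remaining members are given by their ranges. In dorDG microglia, Cxcl1 ran from 0.850 to 15 in FT and from 1.10 to 19.1 in Sham, and Cxcl10 from 1.66 to 4.25 and from 1.23 to 9.32. Ccl4 ran from 68.0 to 146 in FT and from 26.5 to 226 in Sham, Il1b from 23.0 to 50.5 and from 14.0 to 59.9, and Tnf from 4.54 to 8.58 and from 4.12 to 9.56. For Cxcl10, Ccl4, Il1b and Tnf the Sham range enclosed that of FT, and for Cxcl1 the lowest value was in FT and the highest in Sham. Their log2 changes lay between -0.62 ± 0.55 (Cxcl10) and 0.30 ± 0.72 (Cxcl1), with a median over the 7 members of -0.15 beside -0.02 over all genes. In venDG Microglia-like cells, Cxcl1 ran from 1.67 to 10.2 in FT and from 0.340 to 18.3 in Sham, Il1b from 22.5 to 70.5 and from 18.1 to 36.5, and Tnf from 3.87 to 9.81 and from 1.70 to 12.2. Cxcl10 reached 10.7 in FT replicate 2 and 6.11 in Sham replicate 3. The log2 changes lay between -0.60 ± 0.51 (Cxcl1) and the 1.59 of Ccl2, with a median of 0.49 beside -0.03 over all genes. The FT and Sham ranges overlapped for every member in both regions.

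**Figure D4:**
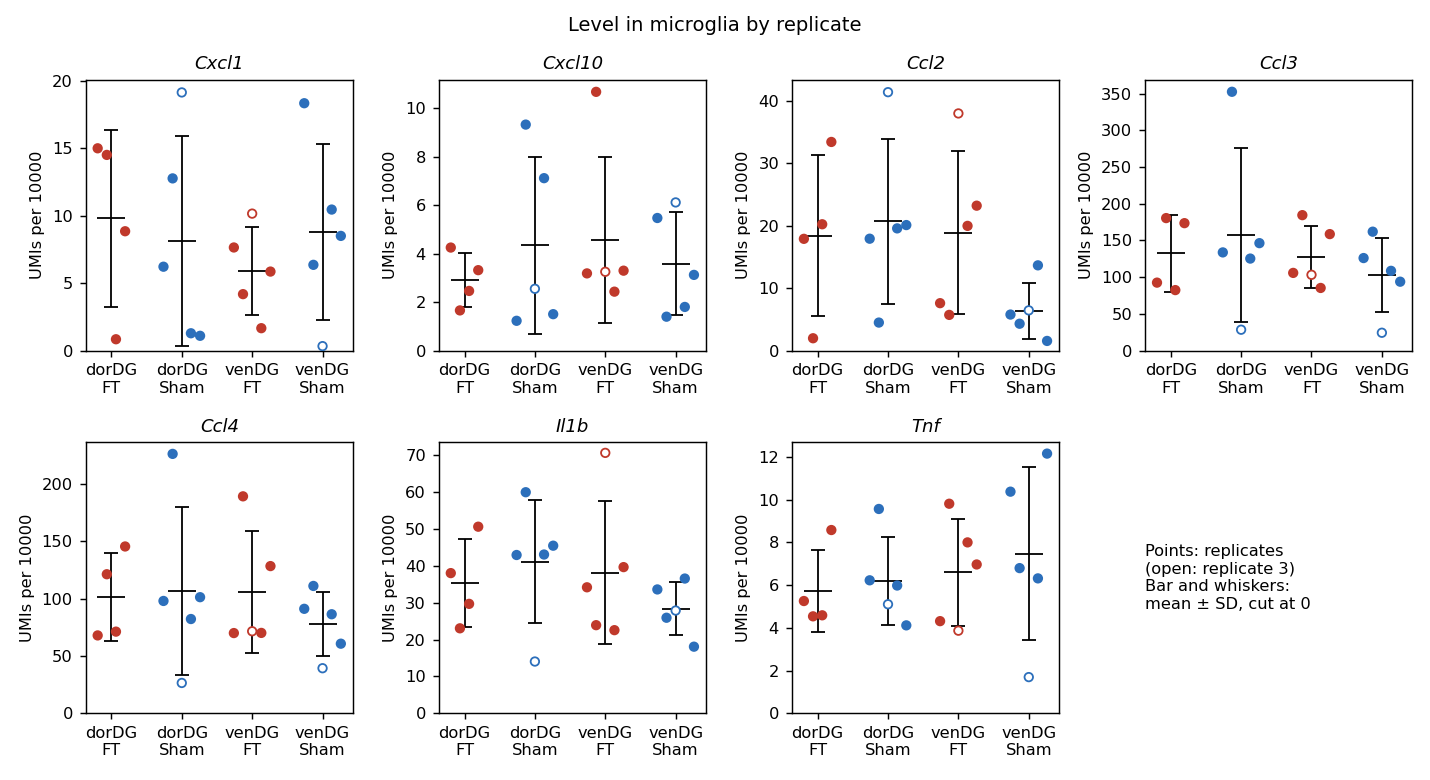
Level of the 7 tested members in microglia per replicate (UMIs per 10000 UMIs) in dorDG FT (n = 4), dorDG Sham, venDG FT and venDG Sham (n = 5 each), with the mean and SD as bars and replicate 3 as an open point. FT and Sham overlap in every panel, and the venDG Ccl2 means were 18.9 in FT and 6.35 in Sham.

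Members varied together to unequal degrees across replicates. Microglial Ccl3 and Ccl4 correlated in dorDG with Pearson's r = 0.989 (permutation p = 2.2e-05, adjusted over 42 relations 0.000926) and Spearman's rho = 0.967 (adjusted permutation p = 0.00694) over 9 replicates, and r was 0.933 without the 2 replicates farthest from the median of Ccl3. In venDG r was 0.881 (adjusted permutation p = 0.00168) and rho 0.927 (adjusted permutation p = 0.00882) over 10 replicates, and r was 0.930 without 2. Ccl2 and Ccl3, in contrast, gave r = -0.631 (permutation p = 0.0831, adjusted 0.317) and rho = -0.583 in dorDG and r = 0.0498 in venDG. In dorDG Sham replicate 3, Ccl2 outnumbered Ccl3 in microglia, with 162 against 112 UMIs (59.1%). Replicates of 2 reactions (4 in dorDG) and of 1 (5) were too few to repeat these within each kind.

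Within the single dorDG types, 38 pairs of a member and 1 of 9 types could be tested and none was called by edgeR or DESeq2, where 0.668% of 33662 pairs of gene and type were called. 5 pairs had an unadjusted p under 0.05. Cxcl1 in Microglia2 had the lowest, with a log2 change of 2.17 ± 0.64 (p = 0.000753, adjusted p = 0.648 by edgeR with Benjamini-Hochberg adjustment). Without Sham replicate 1 it was called, at 4.25 ± 0.93 (adjusted p = 0.0192, edgeR). Few cells set this value: of 80 Microglia2 cells, 83.8% were at 0 for Cxcl1 and 3 held 82.7% of its UMIs. With all replicates, Cxcl1 in Microglia2 ran from 0.261 to 9.39 UMIs per 10000 in FT and from 0 to 3.10 in Sham, with overlap. Ccl3 and Ccl4 in Oligodend2 were at -1.82 ± 0.64 and -1.76 ± 0.58 (adjusted p = 0.999 each). With at least 10 cells per replicate in place of 5, which leaves out Sham replicate 3 and keeps 2 Sham replicates of Oligodend2, both were called, at -2.34 ± 0.36 (adjusted p = 0.0122) and -2.24 ± 0.40 (adjusted p = 0.0270, edgeR). The levels there, 4.16 for Ccl3 over the type, were 0.0207 of the Microglia1 level, and the part of free RNA in them was not tested. The remaining pairs were Ccl2 in Endothelial (2.06 ± 0.89) and Ccl4 in the type named Granule (1.26 ± 0.58), whose granule cell markers summed to 5.96 UMIs per 10000 against 464 for red blood cell and 106 for oligodendrocyte markers.

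Finally, dorDG and venDG were compared within each treatment. Among Sham replicates, log2 changes (dorDG over venDG) ran from -0.72 ± 0.71 (Cxcl1) to 0.48 ± 0.70 (Ccl3), and none of 7 members was called by edgeR or DESeq2 or had an unadjusted p under 0.05, as 0 of 4313 genes were called by edgeR (361 at an unadjusted p under 0.05, 155 by DESeq2). Without dorDG Sham replicate 2, Cxcl10 was called at -1.63 ± 0.36 (adjusted p = 0.0613, edgeR). Among FT replicates they ran from -0.71 ± 0.49 (Cxcl10) to 0.68 ± 0.39 (Cxcl1), again with 0 members called by edgeR or DESeq2 or at an unadjusted p under 0.05, where 0.275% of 3994 genes were called. Same-numbered replicates of the 2 regions varied together, and blocking on that number Cxcl1 was called, higher in dorDG by 0.72 ± 0.21 (adjusted p = 0.162, edgeR with Benjamini-Hochberg adjustment), along with 257 genes in all. Region tests given without the block left this pairing out. With the block, 105 of 4313 genes and 0 of 7 members were called among Sham replicates. Between dorDG microglia and venDG Microglia-like cells the changes ran from -0.23 ± 0.26 (Tnf) to 0.80 ± 0.46 (Ccl2, unadjusted p = 0.0944, edgeR), with 0 of 7 called by edgeR or DESeq2 and 0 at an unadjusted p under 0.05. Of 2920 genes, 0 were called by edgeR (139 at an unadjusted p under 0.05, 1 by DESeq2). With the block, 10 genes and 0 of 7 members were called. The region by treatment term over all cells called 0 of 7 members by edgeR and DESeq2, with 0 at an unadjusted p under 0.05, the widest being Cxcl1 at 1.37 ± 0.91. Of 4161 genes it called 0 by edgeR (404 at an unadjusted p under 0.05, 8 by DESeq2), and 335 without dorDG Sham replicate 2. With the block it called 412 genes and 0 of 7 members.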

How the data were processed

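The 108 labelled libraries belong to 27 droplet reactions of 4 libraries each. The authors deposited UMI counts per gene and cell for dorDG and venDG, made with Cell Ranger (v2 chemistry), and, for dorDG, a table of their cell type names (Seurat 3); rn5 and both tools come from the submitters' processing notes. Deposited normalised venDG values were not used, and 170 venDG columns with a second suffix, of which 167 repeat a barcode, were left out. No doublet caller was run. Aligner settings and the treatment of multi-mapping or antisense reads were not given in the sources used here.

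Counts were summed per replicate. edgeR 4.0.16 (R 4.3.3, TMM, quasi-likelihood) tested genes averaging 0.5 UMIs per 10000 or more, in replicates of at least 5 cells and groups of at least 3 replicates, and called those with a Benjamini-Hochberg adjusted p up to 0.2 and an absolute log2 change of at least 0.32, after the study's thresholds. In all cells it was tested on simulated data with dispersion 0.05 for dorDG FT against Sham (4274 genes) and recovered 94.7% of 2-fold and 100% of 4-fold changes, in dorDG microglia (2976 genes) 55.7% and 98.9%. False calls numbered 45 and 33. These rates hold for that dispersion only. Over all dorDG cells, the SD of the tested members across replicates ran from 46.6% (Ccl2) to 84.8% (Cxcl10) of the mean, and recovery at such a spread was not simulated. DESeq2 1.42.0 was an alternative, beside no low-count filter, other thresholds, left-out replicates, the replicate block, ribosome-rich cells (at least 2% of UMIs from 121 genes), and first and single reactions. VenDG cells were clustered with scanpy 1.11.5 (2000 variable genes without the members, 30 components, 15 neighbours, Leiden resolution 2.0, 28 clusters), a name needing 3 markers at least 2-fold higher in 10% of cells or more. A cluster stayed unnamed where types tied, or where its 10 highest genes by fold held more markers of another type than of its own. Correlations used 100000 permutations. Same-numbered dorDG and venDG replicates of one treatment correlated at 0.113 to 0.564 in their deviations, so that numbers pair regions; same-numbered FT and Sham replicates of a region were not taken as paired, since not every pair exceeded 0.1 (-0.249 for dorDG replicate 2 and -0.201 for venDG replicate 3, 0.117 to 0.393 for the others).

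Members and lists were chosen with earlier results of these data known. The 8 members are always named, and of the pathway lists up to 4 called genes per group, lowest adjusted p first; the 3 most alike genes had at least 100 UMIs. Precision is set by the UMI totals per replicate given above, and intervals and floors cover counting error only. No chi-square comparison of replicates found a repeated library.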

Additional observations from a re-analysis of the deposited data

Results flagged for a closer look

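In 60 groups of 4 or 5 replicates tested for a replicate far from the others, 6 had one. Chance gives about 1 in 20 groups, but the groups are not independent. Of the 6, 3 concern Cxcl10. Over all cells it stood at 2.13 UMIs per 10000 in dorDG Sham replicate 2, the next replicate being at 0.789, and at 2.3 in venDG FT replicate 2, the next being at 0.994. In venDG FT microglia, replicate 2 was again the highest, at 10.7 against 3.3, and these microglial UMIs are part of the all-cell value. Ccl3 over all venDG Sham cells was lowest in replicate 3, at 3.32, the nearest other replicate being at 24.1. S100a9 was seen in 1 replicate of each Sham group, at 0.0181 UMIs per 10000 in dorDG Sham replicate 1 and 0.0717 in venDG Sham replicate 5, and both groups stand here because every other replicate was at 0.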

How the results depend on the processing

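Of the counts of members called, 198 under alternatives stayed within 1.5 times the value given and 20 did not. Over all dorDG cells, the 1 member called (Ccl2) became 0 at an adjusted p of 0.05, with no low-count filter, with the replicate block, in ribosome-rich cells and in first and single reactions, and ran from 0 to 3 with 1 replicate left out. In ribosome-rich cells its log2 change reversed to -0.035. Within dorDG microglia, the Ccl2 change of -0.07 reversed to 0.14 with no low-count filter and, with 1 replicate left out, ran from -0.56 to 0.28 (0.28 without FT replicate 2, 0.25 without Sham replicate 3). Within single dorDG types the 0 pairs called became 3 with no low-count filter (Ccl2 in Endothelial, Ccl3 and Ccl4 in Oligodend2), 2 in ribosome-rich cells, 2 with at least 10 cells and 0 to 2 with 1 replicate left out, among them Cxcl1 in Microglia2 without Sham replicate 1. In venDG Microglia-like cells, no filter gave 1 call, Ccl2 (1.77, edgeR adjusted p = 0.00966). Region comparisons gave 1 call under the replicate block in FT (Cxcl1) and 0 to 1 with 1 Sham replicate left out. The cause of these changes was not tested. The block changed no other call. The fall of 7 members in second reactions held in every alternative run, both in all cells and in microglia. The reaction test in dorDG microglia alone was not run, as 1 dorDG replicate had at least 5 microglia in both reactions; the test over both regions, the microglial interaction, the ribosomal split below and levels without second reactions were added after seeing the data.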

Other observations

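In the 11 replicates of 1 reaction, microglia with at least 2% ribosomal UMIs (240 cells) held Ccl3 at 115, Il1b at 43.1, Ccl2 at 23.2 and Cxcl1 at 6.99 UMIs per 10000. Microglia with less (40 cells, 60628 UMIs) held Ccl3 at 47.7 and Ccl2 at 19.6, of which 3 cells held 81.7% and 90.8%, and Cxcl1 at 0.165. Of these 40 cells, 12 had a Ccl3 UMI. Sham replicate 3, the lowest replicate for microglial Ccl3 in both regions, had 10 of 17 microglia in this low class in dorDG and 7 of 9 in venDG. The venDG FT columns with a second suffix (170 columns, 294323 UMIs) held 2 Ccl3, 1 Cxcl1, 1 Il1b and 1 S100a9 UMIs. A venDG cluster of 37 cells passed 10 microglial and 6 perivascular macrophage markers and was left without a name.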
